A study of Mus musculus with 5 samples.

Results

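Osteopontin and 4 genes of the galectin system were followed in GFP+ Prx1-derived cells sorted from mouse hindlimb muscle. The 5 genes are Spp1, Lgals1, Lgals3, Lgals3bp and Lgals9, of 31055 genes in the deposited matrices, and all 5 had UMIs (unique molecular identifiers, 1 per captured RNA molecule) in every library. They were picked by name after their levels in these libraries had been seen, so those levels are a description. The cells came from Prx1Cre;mTmG mice on a C57Bl/6 background, males or females of 10 to 14 weeks, in which Prx1Cre leaves GFP on in cells that once expressed Prx1 in the limb mesenchyme. Muscle was taken without injury (d0), 3 or 5 days after a non-stabilized tibial fracture, or 3 or 5 days after polytrauma, that is the fracture together with injury of the adjacent muscle. Each condition is 1 droplet library pooled from 2 mice. No difference between conditions could therefore be tested, and the 95% intervals given here cover counting error only.

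Osteopontin, the product of Spp1, is a secreted and heavily phosphorylated glycoprotein that binds integrins through an RGD sequence and also CD44. It is abundant in bone matrix and is made by osteoblasts, by hypertrophic chondrocytes and by macrophages at sites of injury. Galectins are lectins that bind β-galactosides on cell surface and matrix glycoproteins. Galectin-1 (Lgals1) works as a dimer of a single binding domain, galectin-3 (Lgals3) carries a tail through which it forms larger assemblies, and galectin-9 (Lgals9) joins a pair of binding domains in tandem. Lgals3bp encodes a secreted glycoprotein that binds galectin-3, and both Lgals3bp and Lgals9 are known interferon-responsive genes.

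In GENCODE M21 on GRCm38 all 5 are protein-coding genes. Spp1 lies at chr5:104435118-104441050 on the plus strand, in the cluster of SIBLING genes that encode matrix phosphoproteins. Lgals1 lies at chr15:78926725-78930465 and Lgals3 at chr14:47367751-47386160, both on the plus strand. Lgals3bp at chr11:118392751-118402092 and Lgals9 at chr11:78962974-78984946 are on the minus strand of the same chromosome.

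Upstream sequence is shown for Lgals9 and Lgals3bp, which in each injured library were highest in the cluster with most interferon-stimulated message, and for Spp1, which differed most between libraries. The letters are RefSeq's for GRCm38.p6, 5′ to 3′ on the strand of the gene, with matches in capitals. Windows of 250 bases before the RefSeq start were searched on both strands for AANNGAAA, the core bound by interferon regulatory factors, and for TGTGGT, a core bound by Runx factors. Of 32851 promoter windows of this length, 6999 (21.3%) held the first and 4614 the second. The first 2 stretches mark AANNGAAA and the last marks the Runx core. For Lgals3bp only 30 bases around the match are shown, because the match lies inside the GENCODE gene, though before the RefSeq start.
Lgals9, chr11:78984947-78985174, minus strand: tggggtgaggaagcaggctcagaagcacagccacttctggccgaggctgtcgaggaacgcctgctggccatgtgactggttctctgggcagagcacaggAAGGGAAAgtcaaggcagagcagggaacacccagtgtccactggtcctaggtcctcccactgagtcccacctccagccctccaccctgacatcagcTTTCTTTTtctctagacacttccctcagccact
Lgals3bp, chr11:118401960-118401989, minus strand: tcatgtgttttctgaaAATCGAAActaggt
Spp1, chr5:104434861-104435110, plus strand: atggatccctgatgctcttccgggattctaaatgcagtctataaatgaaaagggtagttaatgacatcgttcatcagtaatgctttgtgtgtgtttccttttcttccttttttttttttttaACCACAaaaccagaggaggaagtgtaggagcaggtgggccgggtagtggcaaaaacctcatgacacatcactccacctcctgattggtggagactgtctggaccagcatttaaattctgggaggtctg

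The Lgals9 window held 2 matches to AANNGAAA, which begin 151 and 55 bases before the RefSeq start, and the Lgals3bp window held 1, which begins 14 bases before it. The Spp1 window held 1 match to the Runx core, 128 bases before the start, and also 2 to AANNGAAA (not capitalized). The Lgals3 window held neither. For Lgals1 no window was available, and it was not searched. A match is a description of the letters and not a site shown to be bound.

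The conditions of 2 libraries follow cell numbers and not the deposited labels. One library, deposited under d3 post-polytrauma, has 2001 barcodes and was read as d5 post-fracture. This equals the cell number in the study's source data for d5 post-fracture. Another, deposited under d5 post-fracture and with 6915 barcodes, was read as d3 post-polytrauma. With the deposited labels instead, the values below for d3 polytrauma against d3 fracture become those of d5 against d3 fracture and the reverse, and the values for d5 polytrauma against d5 fracture trade places with those for d5 against d3 polytrauma. The d0 and d3 libraries share 405 to 525 barcodes pair by pair and both d5 libraries share 944, but no more than 3 barcodes lie in both sets. A difference between d5 and d0 or d3 thus cannot be told apart from one between the barcode sets, such as library preparation. The labels name no batch, and the study gives the same kit for all samples. With the deposited labels the split would fall between both polytrauma libraries and the others.

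Cells were kept where 350 to 8000 genes had a UMI and mitochondrial transcripts made up less than 20%. Of these, barcodes under 1000 UMIs and cells with 3 or more UMIs of Tyrobp, a signalling adaptor of myeloid cells, were set apart. The rest numbered 4627 cells at d0, 5569 at d3 fracture, 6101 at d3 polytrauma, 1466 at d5 fracture and 11915 at d5 polytrauma. Their median depth was 3642 UMIs at d0 and between 15769 and 34949 after injury. Shares of cells are therefore given after 2000 UMIs were drawn from each cell, which left out 30 to 743 shallower cells per library. Tyrobp, which mesenchymal cells should lack, had a UMI in 0.0257 to 0.249% of the same drawn cells. Cells with 3 or more of its UMIs had been set apart before drawing. A low share was thus set by that filter and is no independent control.

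Spp1 was nearly absent from the uninjured library and was higher in every injured one, with the top level at d5 polytrauma. Levels are in CPM, the UMIs of a gene scaled to a total of 1000000 over all genes. Spp1 stood at 8.15 at d0 (interval 6.86 to 9.61), 188 at d3 fracture, 308 at d3 polytrauma, 241 at d5 fracture and 668 at d5 polytrauma. None of the 5 counting intervals overlapped. After drawing 2000 UMIs per cell, Spp1 was found in 1.21% of d0 cells, 12.7% at d3 fracture, 16.6% at d3 polytrauma, 17.9% at d5 fracture and 35.4% at d5 polytrauma. Without drawing, the shares were 1.47% at d0 and 33.1% at d3 fracture. The share at d5 fracture was above that at d3 polytrauma while the CPM was below it, so no order is read for these neighbours.

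Few cells carried most of the Spp1 message. At d0, 14 of 4627 cells held 50% of its UMIs, and at most 9 UMIs were counted in a cell. At d3, 126 cells after fracture and 135 after polytrauma did so, at d5 50 and 581. The top 1% of cells held 84.5% of Spp1 UMIs at d0, 33.4% at d3 fracture, 33.6% at d3 polytrauma, 26.4% at d5 fracture and 23.1% at d5 polytrauma. These shares were not taken at equal depth. At d0 the 142 UMIs lay in 68 cells, so the top 46 cells had to hold most of them, and d0 is not compared with the others. The highest cell, at d5 polytrauma, held 1847 Spp1 UMIs.

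Lgals1 was detected in almost every cell, and its level varied 2.96-fold between d0 and its peak. It stood at 2297 CPM at d0, 6795 at d3 fracture, 6725 at d3 polytrauma, 2386 at d5 fracture and 4481 at d5 polytrauma. Both d3 libraries were high and nearly level, and d5 fracture lay close to d0. At equal depth, 94.5% of d0 cells and 95.8 to 99.9% of injured cells had a UMI. The message was spread evenly: the top 1% of cells held between 3.32 and 6.22% of it.

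Lgals3 was highest at d3 polytrauma. Its levels were 50.4 CPM at d0, 171 at d3 fracture, 296 at d3 polytrauma, 188 at d5 fracture and 95.2 at d5 polytrauma. The shares of cells at equal depth were 6.90, 24.2, 38.2, 20.0 and 13.0% in the same order, so d3 fracture and d5 fracture changed places between the 2 measures.

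Lgals3bp stood at 30.5 CPM at d0, 40.7 at d3 fracture, 86.8 at d3 polytrauma, 82.9 at d5 fracture and 60.5 at d5 polytrauma. The intervals of d3 polytrauma and d5 fracture overlapped (85.0 to 88.6 and 80.4 to 85.4). Lgals9 was the one gene of the 5 with its top CPM at d0, an order that median-of-ratios scaling turned (5027 UMIs per size factor at d3 polytrauma against 4431 at d0). It stood at 71.1 CPM there, 36.7 at d3 fracture, 55.3 at d3 polytrauma, 34.8 at d5 fracture and 36.1 at d5 polytrauma. The interval of d5 polytrauma overlapped those of d3 fracture and d5 fracture, and these 3 levels are not put in order. At equal depth Lgals9 was found in 12.7% of d0 cells, 7.69% at d3 fracture, 11.2% at d3 polytrauma, 7.73% at d5 fracture and 7.02% at d5 polytrauma.

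**Figure D1:**
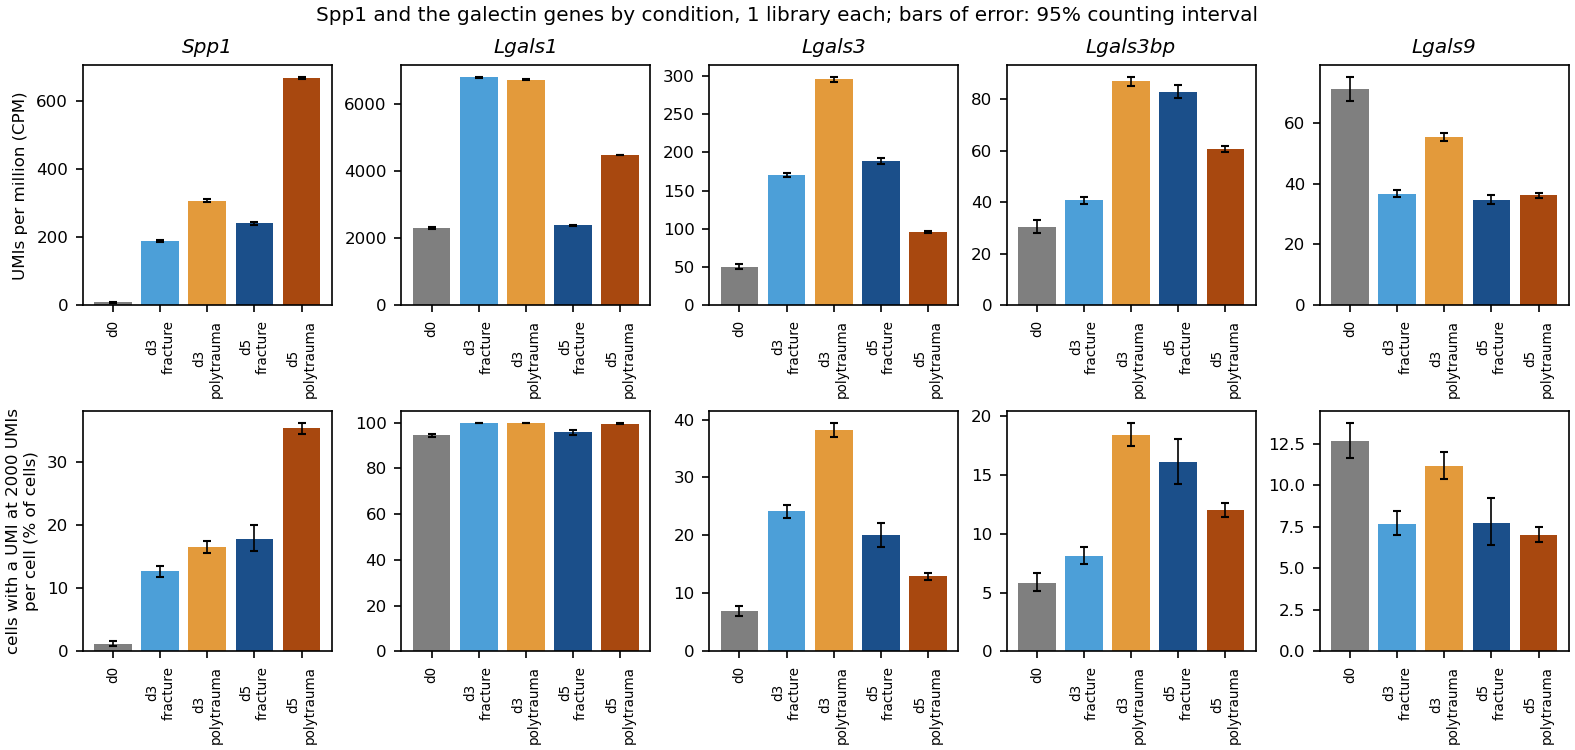
Levels of the 5 genes in each condition, in CPM (upper row) and as the share of cells with a UMI after 2000 UMIs were drawn per cell (lower row), with 95% counting intervals and 1 library per bar. Spp1 ran from 8.15 CPM at d0 to 668 at d5 polytrauma, Lgals3 peaked at d3 polytrauma, and Lgals9 was highest at d0 by CPM but at d3 polytrauma with median-of-ratios scaling.

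The first comparison asked how muscle Prx1-derived cells changed from rest to 3 days after fracture. Spp1 was 23.0-fold higher at d3 fracture than at d0 (log2 ratio 4.53, interval 4.29 to 4.77), Lgals3 3.38-fold (1.76, 1.66 to 1.86) and Lgals1 2.96-fold (1.56, 1.55 to 1.58). These are 3 of 5 genes past 2-fold higher, where 13.0% of 13061 tested genes were, a contrast that was known when the 5 were chosen. Lgals3bp differed by 0.42 and Lgals9 by −0.95 on the log2 scale. No gene of the 5 was past 2-fold lower, with 31.1% of all genes there. The median gene moved by −0.40 in this comparison, and relative to it the log2 ratios were 4.93 for Spp1, 2.16 for Lgals3, 1.96 for Lgals1, 0.82 for Lgals3bp and −0.55 for Lgals9.

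Between d3 and d5 after fracture, Lgals1 was 2.85-fold lower (log2 ratio −1.51) and was 1 of 5 genes past 2-fold lower, against 4.76% of all genes. Lgals3bp was 2.04-fold higher (1.03, interval 0.96 to 1.09) and was 1 of 5 past 2-fold higher, against 39.1% of all genes. It lost this call with median-of-ratios scaling (0.29). The median gene moved by 0.70, and relative to it Lgals3bp differed by 0.33. Spp1 differed by 0.36 and Lgals3 by 0.14, and both turned negative relative to the median gene (−0.34 and −0.56). Lgals9 differed by −0.079, with an interval that held 0.

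At d3, the added muscle injury went with higher Lgals3bp. It was 2.14-fold higher in polytrauma than in fracture (log2 ratio 1.09, interval 1.04 to 1.15), the 1 of 5 genes past 2-fold, against 3.39% of all genes. Lgals3 differed by 0.79, Spp1 by 0.71 and Lgals9 by 0.59, all below 2-fold. Lgals1 differed by −0.015. None of the 5 was past 2-fold lower, where 2.56% of all genes were. In FAP/MP-like clusters alone Lgals3bp lost its call (0.79) and Spp1 was past 2-fold instead (1.89). Markers of other cells were higher in the same comparison. Tyrobp, Lyz2 and C1qb were past 2-fold higher among 8 macrophage genes tested, with the list of 15 at 10.7 CPM after fracture and 17.7 after polytrauma, and so were all 3 myogenic genes tested (median log2 ratio 3.03), with Myod1 at 0.010 and 1.12 CPM and Chrna1 at 0.21 and 1.71. The part of the myogenic genes was not tested, and all calls were the same with cells of 1 or more Tyrobp UMIs set apart.

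At d5 the pattern of the 5 genes was another one. Spp1 was 2.77-fold higher in polytrauma than in fracture (log2 ratio 1.47), 1 of 5 genes past 2-fold higher with 2.73% of all genes there. Lgals1 was 1.88-fold higher (0.91). Lgals3 was 1.98-fold lower (−0.98), just inside the limit, and Lgals3bp differed by −0.45. None of the 5 was past 2-fold lower, with 12.4% of all genes there. Lgals9 differed by 0.057, with an interval that held 0.

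From d3 to d5 after polytrauma, Spp1 was 2.17-fold higher (log2 ratio 1.12) and Lgals3 lower (log2 ratio −1.63). Each was 1 of 5 genes past 2-fold in its direction, against 29.0% of all genes higher and 5.44% lower. With median-of-ratios scaling Spp1 lost its call (0.62). Lgals1 differed by −0.59, Lgals3bp by −0.52 and Lgals9 by −0.61. The median gene moved by 0.52, and relative to it Spp1 differed by 0.60, Lgals3 by −2.15, Lgals9 by −1.13, Lgals1 by −1.10 and Lgals3bp by −1.04.

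Clusters were built within each library and named from marker lists. FAP/MP-like, for fibro-adipogenic and mesenchymal progenitors, needed at least 3 of Prrx1, Cxcl12, Pdgfra, Ly6a and Cd34 above the mean of the other clusters. Some clusters of this name lacked Prrx1, Pdgfra or Cd34 by this rule. The largest clusters of d5 polytrauma met it for Prrx1 and stayed unnamed. The 5 genes and the naming markers were left out of the variable genes from which clusters were built. Levels of the 5 genes in a cluster are a description and were not tested. Shares of a library's UMIs held by a cluster are shares of the UMIs in its cells compared.

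Among the cells compared at d0, Spp1 was concentrated in a perineurial-like cluster. This cluster had the tight-junction gene Cldn1, the glucose transporter gene Slc2a1 and Itgb4 of the nerve sheath. Its 139 cells stood at 209 CPM of Spp1 and held 57.7% of the 142 UMIs of the cells compared. Another 169 Spp1 UMIs of d0 lay in the barcodes under 1000 UMIs, outside the clusters. Spp1 was among the 10 leading genes of the perineurial-like cluster. The tenocyte-like cluster stood at 28.1 CPM and the 5 FAP/MP-like clusters between 0 and 10.4. Over all 3053 FAP/MP-like cells of d0 the level was 1.70 CPM, from 18 UMIs.

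After injury every cluster held Spp1 UMIs. At d3 fracture the FAP/MP-like clusters stood at 39.1 and 79.2 CPM, while a dividing cluster led by Ube2c and Top2a stood at 240 and an unnamed cluster led by Il11, Slc16a3 and Ass1 at 261, and these held 53.0 and 33.0% of its Spp1 UMIs. Pericyte-like clusters, with mural genes such as Rgs5 and Mylk, stood at 7.21 and 264, the latter with Spp1 in 14% of its 50 cells. At d3 polytrauma the FAP/MP-like clusters stood at 30.8 and 278, the tenocyte-like cluster at 583 and the pericyte-like cluster at 648. Without drawing, Spp1 was found in 43.7% of these tenocyte-like cells but in 12.7% of the 55 pericyte-like cells. A dividing cluster of 1305 cells at 383 CPM held 36.5% of the library's Spp1 UMIs. One unnamed cluster of 62 cells there, led by Spp1 and Stra6, reached 4993 CPM and held 15.3% of the library's Spp1 UMIs. Stra6 led the perineurial-like cluster of d0 as well. The cluster of 62 cells also met the perineurial markers Cldn1, Slc2a1 and Itgb4. It stayed unnamed because the endothelial marker Cdh5 was among its leading genes.

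At d5 fracture, Spp1 was highest in a fibroblast-like cluster of 128 cells at 661 CPM, led by Col5a3, Lrrc15, Ank and Enpp1. Ank and Enpp1 act on pyrophosphate, an inhibitor of mineral deposition, and stood at 155 and 291 CPM in that cluster. Tenocyte-like clusters stood at 90.1, 284 and 416, the chondrocyte-like cluster at 298 and the FAP/MP-like clusters at 21.3 and 28.0. At d5 polytrauma a fibroblast-like cluster, also with Ank (144 CPM) and Enpp1 (289), stood at 892 CPM of Spp1, and the other fibroblast-like cluster at 199. The 3 largest clusters were unnamed, 2 of them dividing. They stood at 748, 751 and 887 CPM and held 23.4, 23.9 and 26.0% of the Spp1 UMIs of the library. The FAP/MP-like clusters stood between 276 and 493. The chondrocyte-like cluster stood at 131 and the pericyte-like cluster at 1407, of which 25.0% of cells were possible doublets. An unnamed cluster at 1241 had a median of 1366 UMIs, with 186 of its 327 cells on barcodes shared with another library.

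**Figure D2:**
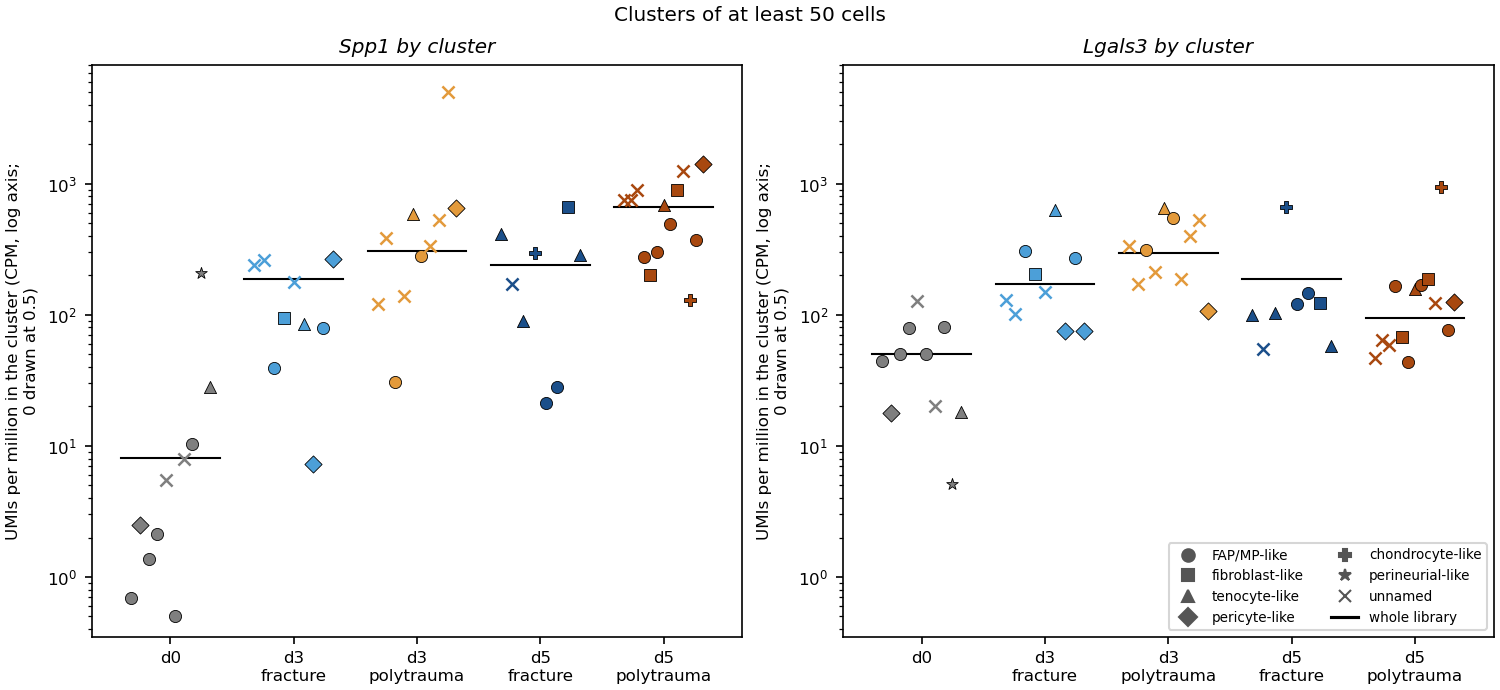
Spp1 (left) and Lgals3 (right) in each cluster of at least 50 cells, in CPM on a log axis, by condition, with the symbol giving the cluster's name and the line the level of the whole library. The perineurial-like cluster stood at 209 CPM of Spp1 above all other d0 clusters, and the chondrocyte-like clusters stood at 660 and 944 CPM of Lgals3 above all others of their libraries.

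The highest Lgals3 cluster of each library carried tendon or cartilage markers, but not every cluster with such markers was high. At d0 an unnamed cluster with markers of both, led by Chad and Comp among others, stood at 127 CPM, the highest of that library. At d3 its highest clusters were tenocyte-like, with 631 CPM after fracture and 651 after polytrauma, against 270 and 309 in the FAP/MP-like clusters of fracture and 310 and 547 in those of polytrauma. At d5 the highest were chondrocyte-like, with 660 CPM after fracture and 944 after polytrauma (960 without shared barcodes, which made up 92 of its 186 cells). The chondrocyte-like cluster made up 12.0% of cells at d5 fracture and held 58.0% of the library's Lgals3 UMIs, and at d5 polytrauma it made up 1.56% of cells and held 10.6%. Without the chondrocyte-like clusters, Lgals3 stood at 94.8 CPM at d5 fracture and 86.1 at d5 polytrauma, a log2 ratio of −0.14 in place of −0.98. The tenocyte-like clusters of d5 fracture stood at 57.5, 99.6 and 103 CPM, below its FAP/MP-like clusters at 121 and 147. At d5 polytrauma the tenocyte-like cluster stood at 158, below FAP/MP-like clusters at 164 and 168. At d0 the tenocyte-like cluster stood at 18.2, below the FAP/MP-like range of 44.3 to 80.3, and the perineurial-like cluster was lowest, at 5.09 CPM from 2 UMIs.

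Lgals1 had UMIs throughout. At d3 fracture it ran from 2780 CPM in a pericyte-like cluster to 8479 in the tenocyte-like cluster, and at d5 fracture from 1560 in a pericyte-like cluster to 3670 in the fibroblast-like cluster. At d0 the tenocyte-like cluster (3864) and the unnamed cluster led by Chad and Comp among others (3845) were highest. Their intervals overlapped, and they are not put in order. In both polytrauma libraries the highest cluster was unnamed. At d3 it stood at 11610 CPM, in 121 cells led by Des and Eno3, above the tenocyte-like cluster at 8582. At d5 it stood at 6519, with 186 of its 327 cells on shared barcodes.

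In each injured library, Lgals3bp and Lgals9 were highest in the cluster that was highest in interferon-stimulated genes. The list of 9 such genes, among them Isg15, Ifit1, Irf7 and Bst2, summed to 3281 CPM in a FAP/MP-like cluster of 56 cells at d3 fracture, which had 290 CPM of Lgals3bp and 128 of Lgals9. The FAP/MP-like cluster highest in the list at d3 polytrauma (1306 CPM) had 269 and 104, that at d5 fracture (1646) 231 and 92.1, and that at d5 polytrauma (2345) 161 and 91.9. The chondrocyte-like clusters, low in the list at 48.2 and 53.9 CPM, had 13.7 and 19.1 of Lgals3bp and 2.80 and 2.79 of Lgals9. At d0 this was not so. The cluster highest in the list (440 CPM) had 36.4 CPM of Lgals3bp and 79.1 of Lgals9, while other FAP/MP-like clusters, with 225 and 217 CPM of the list, held the most Lgals3bp (47.1) and the most Lgals9 (114). The pericyte-like cluster of d0 had 376 CPM of the list with 2.50 of Lgals3bp and 13.1 of Lgals9.

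**Figure D3:**
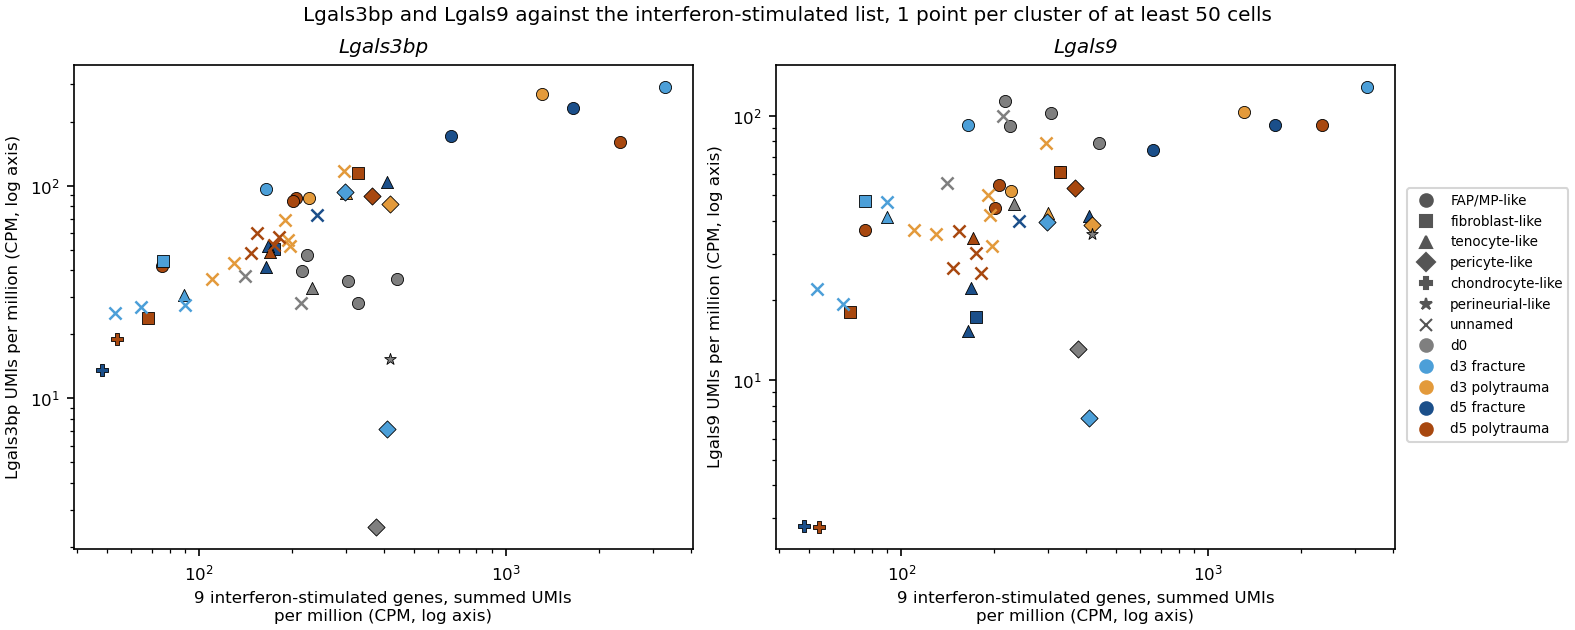
Lgals3bp (left) and Lgals9 (right) against the summed level of 9 interferon-stimulated genes, 1 point per cluster of at least 50 cells, all axes in CPM on a log scale. The 4 injured FAP/MP-like clusters above 1000 CPM of the list held 161 to 290 CPM of Lgals3bp, and the chondrocyte-like clusters were lowest in Lgals9, at 2.80 and 2.79.

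Between libraries neither gene moved with the list in every comparison. Lgals3bp had the direction of the list's median in each comparison but d3 fracture against d0. At d3 polytrauma against d3 fracture, 7 of its 9 genes were past 2-fold higher, where 3.39% of all genes were, and none lower. The median log2 ratio was 1.82 beside −0.021 over all genes, and Lgals3bp and Lgals9 differed by 1.09 and 0.59. Isg15, a ubiquitin-like modifier, stood at 106.7 CPM at d0, 13.2 at d3 fracture, 47.0 at d3 polytrauma, 64.3 at d5 fracture and 25.3 at d5 polytrauma. Bst2, a membrane tether of viral particles, stood at 103, 56.6, 162, 139 and 101 CPM in that order. At d3 fracture against d0, 6 of the 9 were past 2-fold lower, where 31.1% of all genes were (median −1.90 beside −0.40). Lgals9 was lower by 0.95 on the log2 scale as well, while Lgals3bp was not lower (0.42). At d5 against d3 fracture all 9 were past 2-fold higher (median 2.47 beside 0.70, with 39.1% of all genes higher). Lgals3bp differed by 1.03 there and Lgals9 by −0.079. At d5 polytrauma against d5 fracture 5 were lower, where 12.4% of all genes were (median −1.10 beside −0.11). Lgals3bp differed by −0.45 there and Lgals9 by 0.057. At d5 against d3 polytrauma 1 was lower and none higher, where 5.44% and 29.0% of all genes were (median −0.64 beside 0.52). Lgals3bp differed by −0.52 there and Lgals9 by −0.61. Neutrophil genes moved beside the list: S100a8 stood at 0.62 CPM at d3 fracture, 1.96 at d3 polytrauma, 1.64 at d5 fracture and 0.20 at d5 polytrauma. Their part in the result was not tested.

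Within FAP/MP-like cells the levels followed another order. There were 3053 such cells at d0, 1219 at d3 fracture, 1280 at d3 polytrauma, 302 at d5 fracture and 2740 at d5 polytrauma, in clusters rebuilt within each library, and dividing or unnamed clusters are not among them. Their Spp1 stood at 1.70, 40.7, 151, 24.4 and 359 CPM in that order, so polytrauma exceeded fracture by 1.89 on the log2 scale at d3 and by 3.88 at d5. The d3 difference rested on 1 cluster, led by H2-Ab1, Cox4i2 and Ndufa4l2, which held 1993 of the 2228 Spp1 UMIs at 278 CPM. The other FAP/MP-like cluster of d3 polytrauma stood at 30.8, below the 39.1 and 79.2 of d3 fracture. At d5 each of the 4 clusters of polytrauma was above both of fracture. Lgals3bp stood at 38.5, 104.6, 181, 204 and 77.3 CPM. Lgals9 stood at 91.0 at d0 and 93.4 at d3 fracture, where the whole libraries differed by −0.95 on the log2 scale, and at 78.6, 83.8 and 49.9 in the others. Lgals3 stood at 133 at d5 fracture and 140.5 at d5 polytrauma. The 2 FAP/MP-like clusters of d5 fracture had 662 and 1646 CPM of the interferon-stimulated list, and those of d5 polytrauma 75.9 to 2345.

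Likeness of pattern was measured as Pearson's r of log2(CPM + 1) over the 50 clusters of at least 50 cells, which share libraries and depth, among 13138 genes. The genes most like Lgals3bp were Bst2 (r = 0.84), Zbp1, Ly6e, Oas1a and Ifnar2, and those most like Lgals9 were Mgst1 (0.86), H2-T22, Nnmt, Tmem106a and Gsdmd. Those most like Spp1 were Akt1s1 (0.88), Gde1, Hmgb3, Cdkn2a and Dhps, and those most like Lgals1 were Ap2s1 (0.95), Mrpl52, Ppp1ca, Eif4ebp1 and Eif3i. For Lgals3 no gene passed 0.71, which was the value of Kti12, and Gar1, Rps7 and Tomm20 were also among the most alike. Among the 5 genes themselves, r was 0.63 for Lgals3bp with Lgals9, 0.58 for Spp1 with Lgals1, 0.54 for Lgals1 with Lgals3 and −0.31 for Spp1 with Lgals9.

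Cells in the top 2% of a library by the level of a gene, with at least 3 UMIs of it, were set against the rest, and genes were named where they were among the 50 highest by fold in at least 3 of the 4 injured libraries, a rule set after seeing the data. For Spp1 there were 20 such genes, and Ass1 of arginine synthesis, the cyclin gene Ccnd1 and Ank were so in all 4. Ank stood at 231 CPM in the Spp1-high cells of d5 fracture against 30.9 in the rest, and at 122 against 26.3 at d5 polytrauma. Bmp2, a bone morphogenetic protein, and Prg4, the joint lubricant lubricin, were among the others. For Lgals3 there were 5 genes: the small heat shock gene Cryab in all 4 libraries, and Comp, Acan, Col11a1 and Fam180a in 3. Cryab stood at 495 CPM in Lgals3-high cells of d3 fracture against 82.1 in the rest. For Lgals3bp, those in all 4 were Isg15, Cxcl9, Irf7, Ifi27l2a, Iigp1, Ifit1, Clec3b, Apod, C3, C4b, Ly6c1 and Lpl. For Lgals9, they were Isg15, Cxcl9, Irf7, Bst2, Phf11d, Ifi27l2a, Iigp1, Ifit1, Ifit3, Pi16 and Ly6c1. Pi16 and Clec3b were also among the leading genes of FAP/MP-like clusters after injury. For Lgals1 Crip2 was in all 4, and the tendon genes Tnmd, Kera and Scx in 3.

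Osteopontin's receptors were measured from a list of 10 genes. Cd44 stood at 182 CPM at d0, 286 at d3 fracture, 304 at d3 polytrauma, 185 at d5 fracture and 267 at d5 polytrauma. Itga5, the fibronectin receptor's α subunit, stood at 73.1, 181, 204, 73.8 and 182 CPM, higher in the same 3 libraries as Cd44. Itgb1 stood at 207, 158, 147, 429 and 470, higher in both d5 libraries. Itgav, partner in the classical osteopontin receptor, stood between 54.4 and 98.0, and Itgb3 between 2.54 and 14.2. Itga8 stood at 39.7 CPM at d0 and at most 2.03 after injury. At d3 fracture against d0, 1 of the 8 tested receptors was past 2-fold higher and 3 lower, where 13.0% and 31.1% of all genes were, with a median log2 ratio of −0.51 beside −0.40 over all genes. At d3 polytrauma against d3 fracture none of 8 was past 2-fold either way.

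The other SIBLING genes did not share Spp1's pattern in CPM. Ibsp, encoding bone sialoprotein, stood at 4.76 at d0, 0.15 at d3 fracture, 0.0097 at d3 polytrauma, 78.8 at d5 fracture and 21.2 at d5 polytrauma. Its highest clusters at d5 were chondrocyte-like, with 246 CPM after fracture, where a dividing tenocyte-like cluster followed at 226, and 1409 after polytrauma. Of the 186 cells of that polytrauma cluster, 92 were on barcodes shared with another library, and the level includes them. Dmp1 was at most 0.86 CPM, and Mepe and Dspp had 0 UMIs in every library, which allows up to 0.172 CPM at d0 and less elsewhere. Fam20c, the kinase of secreted phosphoproteins, stood at 20.5 CPM at d0 and 5.35 at d3 fracture. Mmp3, a protease that cleaves osteopontin, stood at 84.6 CPM at d5 fracture and between 14.9 and 26.0 elsewhere.

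Of 7 other galectin genes in the matrices, Lgals8 and Lgalsl were the 2 above 10 CPM. Lgals8 stood at 25.0 CPM at d0, 17.5 at d3 fracture, 17.4 at d3 polytrauma, 29.3 at d5 fracture and 25.5 at d5 polytrauma. Lgalsl, a galectin-like gene, stood at 32.7 at d0, 8.25 at d3 fracture, 32.1 at d5 fracture and 24.5 at d5 polytrauma, and was lowest at d3 polytrauma. Both were thus low in the d3 libraries, where Lgals1 and Lgals3 were high. Lgals4 was at most 4.13 and Lgals7 at most 4.42 CPM. Among galectin ligands, Fn1 for fibronectin stood at 984, 1154, 750, 3224 and 2406 CPM, and the lysosomal genes Lamp1 and Lamp2 were past 2-fold higher at d5 than at d3 fracture, along with Mgat5, Itgb1 and Fn1 (5 of 8 tested, where 39.1% of all genes were higher, median 1.40 beside 0.70). P4hb, encoding protein disulphide isomerase, stood at 235 CPM at d0 and between 641 and 798 after injury. Havcr2, encoding the galectin-9 receptor TIM-3, was at most 0.25 CPM.

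Spp1 and Lgals3 are also strong macrophage genes, so the myeloid cells in these libraries were measured beside them. In the cells compared, a list of 15 macrophage genes summed to 60.3 CPM at d0 and between 10.7 and 23.8 after injury. At d0, 42.0 of these CPM came from Gpnmb, 11 of 15 genes had a UMI, and Itgam, Adgre1, Mrc1 and Trem2 were at 0. All 15 had a UMI in each injured library, and Ptprc, encoding CD45, was between 0.010 and 0.15 CPM in all 5. In the 2 to 100 Tyrobp-positive cells set apart per library, the list summed to between 3946 and 46733 CPM. Those cells held 0.04 to 3.91 UMIs of Spp1 per UMI of Tyrobp (0 of 49 at d5 fracture, where there were 2 cells). The cells compared held 28.4 at d0, 535 at d3 fracture, 236 at d3 polytrauma, 781 at d5 fracture and 2870 at d5 polytrauma. The sets were split by Tyrobp itself, so a higher ratio in the cells compared was fixed by the split. Nothing about the source of Spp1 is read from it. Lgals3 stood at 1394 CPM in the Tyrobp-positive cells of d3 fracture, 3532 at d3 polytrauma and 2267 at d5 polytrauma, each above the cells compared. Spp1 stood at 843, 3386 and 6514 CPM in the same cells. At d5 polytrauma 14 of the 26 such cells had a Spp1 UMI, and the highest held 823 of their 1750. The cell highest in Lgals3 there held 248 of 609 Lgals3 UMIs. From d3 to d5 after polytrauma, where Lgals3 was lower, 4 of 11 macrophage genes tested were past 2-fold lower too, where 5.44% of all genes were. The list's median log2 ratio was −0.43 beside 0.52 over all genes. Tyrobp, by which cells were set apart, was 1 of the 4. The part of macrophage genes was not tested beyond setting apart cells of 1 or more Tyrobp UMIs, which left every call of the 5 genes the same.

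Spp1 was enriched in barcodes under 1000 UMIs. They held 335 CPM at d0, 672 at d3 fracture, 1460 at d3 polytrauma, 9078 at d5 fracture and 946 at d5 polytrauma, each above the cells compared. At d0, 167 of the 169 UMIs were on the 384 barcodes shared with another library (709 CPM), and the 351 unshared barcodes held 2 (7.44 CPM, interval 0.90 to 26.9). With all retained cells counted, d0 stood at 17.4 CPM and the log2 ratio of d3 fracture against d0 was 3.45. At d5 fracture 45 of the 284 barcodes were shared, and the 239 others still held 8353 CPM. Hmga2, an architectural chromatin gene noticed after its values were seen, stood at 1015 CPM in these barcodes and at 4.25 in the cells compared. The 116 of them with a Hmga2 UMI held 13711 CPM of Spp1 and the 168 others 5972. Lgals3 was also higher in the low barcodes of every library, with 315 against 50.4 CPM at d0 and 508 against 188 at d5 fracture. Lgals1 was higher there too, except at d5 polytrauma (2652 against 4481). In the low barcodes of d5 fracture Lgals3bp stood at 16.4 CPM, below the 82.9 of the cells compared, and Lgals9 at 32.8 beside 34.8. The macrophage list summed to 373 CPM in the low barcodes at d0, 1201 at d3 fracture and 1816 at d3 polytrauma. It summed to 371 at d5 fracture and 225 at d5 polytrauma, each above the cells compared. Low barcodes with 3 or more Tyrobp UMIs numbered 9 at d3 fracture, 17 at d3 polytrauma and 5 at d5 polytrauma. The part of myeloid message in their Spp1 and Lgals3 was not tested.

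**Figure D4:**
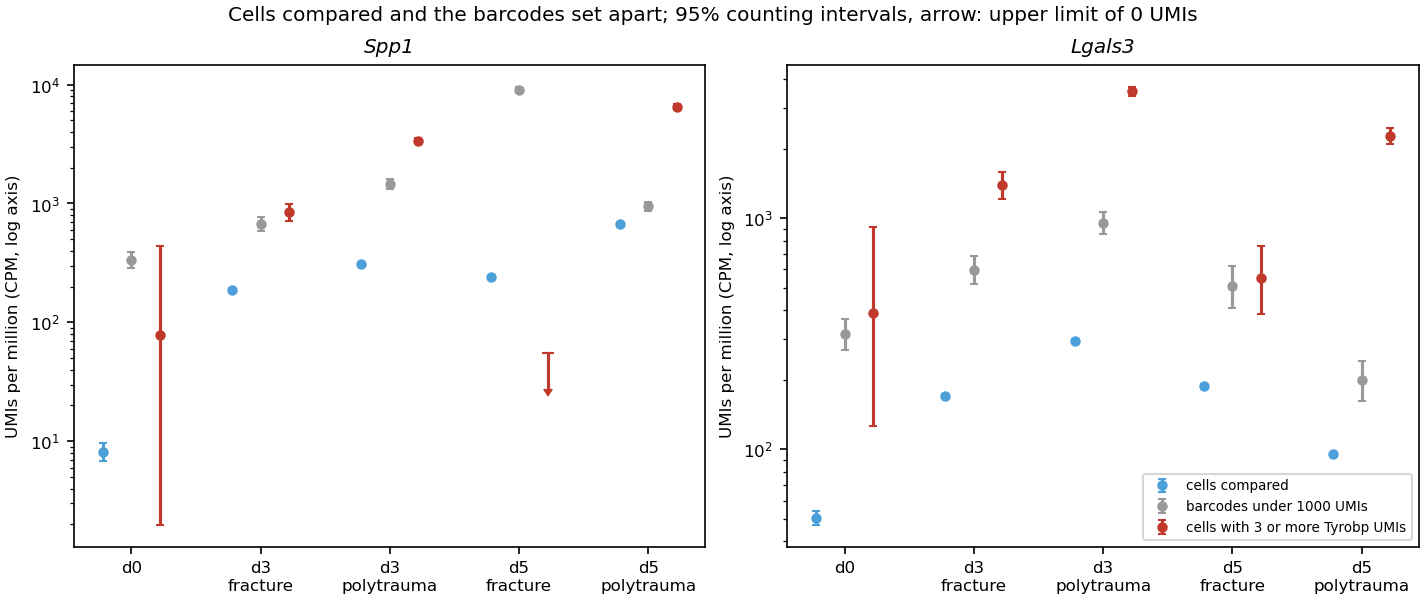
Spp1 (left) and Lgals3 (right) in the cells compared, in barcodes under 1000 UMIs and in cells of at least 1000 UMIs with 3 or more Tyrobp UMIs. Levels are in CPM on a log axis with 95% counting intervals, and an arrow marks the upper limit where no UMI was counted. Some barcodes under 1000 UMIs also had 3 or more Tyrobp UMIs. Spp1 in the low barcodes of d5 fracture stood at 9078 CPM against 241 in the cells compared.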

How the data were processed

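The authors counted UMIs of 10x 3′ libraries with Cell Ranger (3.1.0 in the matrix headers) on mm10 and deposited raw counts per gene and barcode, not normalized. The cells, thresholds and conditions are those given above. Total counts per library were 18247307 to 204474562 UMIs. Counts of a gene were summed over cells and divided by the total (CPM), with exact Poisson intervals, exact Clopper-Pearson intervals for shares and exact conditional binomial intervals for ratios. PCR and sampling of mice are outside these intervals. With 1 library per condition no test was run, and a gene was called past 2-fold, among genes with at least 50 UMIs over both libraries. Barcodes were called shared when another library held them, except those with 10-fold or more UMIs than in that library. Clusters used 2000 variable genes, 20 principal components, 15 neighbours and Leiden at resolution 0.5 (leidenalg 0.10.2), and a name needed at least 3 markers of its list in 10% of cells. Possible doublets were scored against simulated pairs and kept, then left out as an alternative.

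The 5 genes and all lists were chosen with earlier results of these data known. List genes were named where a library held at least 50 of their UMIs, and so were the 5 most alike genes per member, except 1 that is not reported here. Other genes (Mepe, Dspp, Havcr2, Ptprc, Hmga2, leading genes of clusters and genes of member-high cells) were named after their values were seen. The ratio, interval, scaling and thinning code was tested on simulated counts. Software was Python 3.11.15, numpy 2.4.6, scipy 1.17.1, scikit-learn 1.9.0 and matplotlib 3.10.9. Promoter letters are RefSeq's.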

Additional observations from a re-analysis of the deposited data

Results flagged for a closer look

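By CPM, some log2 ratios differed in sign between injuries or days. From d3 to d5, the log2 CPM ratio of Lgals3 was 0.14 after fracture and −1.63 after polytrauma, and that of Lgals3bp was 1.03 and −0.52. Seen as polytrauma against fracture, Lgals3 differed by 0.79 at d3 and −0.98 at d5, and Lgals3bp by 1.09 and −0.45. Lgals1 was nearly level at d3 (−0.015) and differed by 0.91 at d5. These are the same 4 libraries read both ways, and with 1 library each the difference between effects was not tested. Relative to the median gene, Lgals3 was lower at d5 than at d3 in both injuries (−0.56 and −2.15), and Lgals3bp still differed in sign (0.33 and −1.04). The Lgals3 ratio after fracture kept its sign in 7 of 12 alternatives and was −1.20 in FAP/MP-like clusters only. Without chondrocyte-like clusters Lgals3 stood at 94.8 CPM at d5 fracture, below the 171 of d3 fracture. Its opposite sign between injuries thus depended on the cells counted and the scaling.

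Spp1 was also high in barcodes under 1000 UMIs, which were left out of the comparisons except where all retained cells were counted. It stood at 672 CPM at d3 fracture, 1460 at d3 polytrauma, 9078 at d5 fracture and 946 at d5 polytrauma there, above the 335 CPM of d0. Barcodes shared with another library made up 52.2% of them at d0, 76.1% at d3 fracture, 77.6% at d3 polytrauma, 15.8% at d5 fracture and 88.4% at d5 polytrauma. On unshared barcodes Spp1 stood at 7.44, 289, 2946, 8353 and 1556 CPM in the same order. The summed macrophage genes were also higher in barcodes under 1000 UMIs than in the cells compared, in every library.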

How the results depend on the processing

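No paired analysis was possible because each condition has 1 library. The intervals cover counting error only, not mice or library preparation, and the 142 Spp1 UMIs of d0 limit the precision of its ratio. The 25 log2 ratios were recomputed under 12 alternatives with the same conditions, 2 of them (FAP/MP-like clusters only, and without chondrocyte-like clusters) chosen after seeing the data, and 286 of 300 values kept their sign. Of the 5 genes, the number past 2-fold higher from d3 to d5 fracture was 1 and became 0 with median-of-ratios scaling, with each cell weighted equally, with 2000 UMIs drawn per cell, with no filter on genes or mitochondrial UMIs and in FAP/MP-like clusters only. The number lower became 2 in FAP/MP-like clusters and 0 with the deposited labels. With the deposited labels 1 gene was lower at d3 polytrauma against d3 fracture and 1 at d5 polytrauma against d5 fracture, in place of 0 each, and 0 from d3 to d5 polytrauma in place of 1. With median-of-ratios scaling 2 genes were higher at d5 polytrauma against d5 fracture, and from d3 to d5 polytrauma 0 were higher and 4 lower. In FAP/MP-like clusters 4 were higher at d3 fracture against d0 in place of 3, with Lgals3bp added, the 1 higher at d3 polytrauma against d3 fracture was Spp1 in place of Lgals3bp, 2 were higher and 1 lower at d5 polytrauma against d5 fracture, and 2 were lower from d3 to d5 polytrauma. With under 10% mitochondrial UMIs, 1 was lower at d3 fracture against d0 (Lgals9, −1.06) and 1 at d5 polytrauma against d5 fracture (Lgals3, −1.02). The cause was not tested.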
